A study of Mus musculus with 20 samples.

Results

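The genes described are 10 members of the Toll-like receptor and NF-kB system, taken from the 52636 genes of each table by their symbol. They are the receptors Tlr2 and Tlr4, the co-receptor Cd14, the adaptor Myd88, the subunit genes Nfkb1, Rel and Relb, the inhibitor genes Nfkbia and Tnfaip3, and Nfkbiz, the gene of a nuclear co-regulator. Their RNA was measured in macrophages that had been grown for 6 days from mouse fetal liver cells in medium conditioned by L cells, a fibroblast line that releases the macrophage growth factor M-CSF. The embryonic day is given as 14.5 in one label and 14.4 in another. The labels give 3 comparisons: hypoxia (1% O2 for 18 h) against normoxia (20% O2), animals labelled as conditional knockouts of HuR (Csf1r-iCre with HuR fl/fl; KO-84, KO-94 and KO-179) against controls (Csf1r-iCre with HuR +/+; WT-280 and WT-281), and TRAP against input.

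Every animal, control or not, carried the Csf1r-iCre transgene and expressed the ribosomal protein L10a fused to EGFP. The promoter of Csf1r drives the Cre recombinase in the macrophage lineage; the labels do not say what drives the EGFP fusion. TRAP (translating ribosome affinity purification) is the poly(A) RNA recovered with the tagged ribosomes, and input is the total poly(A) RNA of the same divided lysate. Each of the 5 animals gave 4 libraries, 20 in all, and the animal is the replicate. The targeted gene, Elavl1, which encodes HuR, ranged over 1.69 to 154 TPM in knockout-labelled and 2.07 to 47.3 TPM in control input libraries, and over 0.760 to 72.1 TPM and 1.14 to 40.4 TPM in TRAP, and was therefore not lower in the libraries labelled knockout. Since 1 value covers all exons of the gene, this may say nothing of the floxed part, and each direction between genotypes rests on the labels.

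All 10 macrophage markers examined, Lyz2 and Cd68 among them, had a median of at least 1 TPM over the input libraries, and their summed level was 7663 to 20452 TPM. Erythroid markers summed to at most 5.08 TPM and neutrophil markers to at most 29.9 TPM in any library. Mast cell or megakaryocyte markers reached 68.8 TPM, hepatocyte markers 43.3 TPM, endothelial markers 13.6 TPM and dendritic cell markers 2.77 TPM. Of the mast cell or megakaryocyte markers, Ppbp alone had 8.78 to 68.2 TPM in input, and each of the others had a median of 0 there. The 11 fibroblast markers summed to 147 to 557 TPM in knockout-labelled and 643 to 1072 TPM in control input libraries, and to 18.4 to 175 TPM in knockout-labelled and 135 to 309 TPM in control TRAP libraries. The share of mitochondrially encoded mRNA was 0.0298% to 0.861% in TRAP and 1.26% to 4.75% in input. Values were read as TPM (transcript shares scaled by length, with a common sum for all libraries), so the sequencing depth is unknown. In bulk cultures, fewer cells of a type and less RNA per cell cannot be told apart.

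Toll-like receptors recognise microbial products. TLR2 and TLR4 recruit the adaptor MyD88, which leads through kinases and ubiquitin ligases to the IKK complex and to the release of NF-kB dimers from IkB proteins; CD14 loads lipopolysaccharide onto the TLR4 complex. NF-kB then induces its own brakes: Nfkbia encodes IkBα, which takes the dimers back out of the nucleus, and Tnfaip3 encodes A20, a ubiquitin-editing enzyme that acts upstream of IKK. NF-kB also induces Nfkbiz, which encodes IkBζ, a nuclear co-regulator of secondary response genes and not simply a brake. Nfkb1 encodes p105, the precursor of p50, and Rel and Relb encode the transactivating subunits c-Rel and RelB. The labels name no stimulus of the cultures, and none of the comparisons is one of added ligand.

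RefSeq promoter sequences on GRCm38.p6 were used for 5 of the 10 genes (Tlr2, Myd88, Nfkbia, Tnfaip3 and Rel). Cd14 was left out of these counts, and no sequence was at hand for Tlr4, Nfkbiz, Nfkb1 and Relb. The 250 bases before the start site were searched on both strands for the general NF-kB consensus and for the letters GGGANTTTC, which can overlap it. The consensus was found in 4 of the 5 genes, Myd88 being the exception, against 7.25% of all 32851 promoter windows, and GGGANTTTC in 1, Nfkbia, against 0.941% of windows. The stretches before the feedback genes Nfkbia and Tnfaip3 and the subunit gene Rel are shown because these are the members whose own regulation by NF-kB closes the loop; capitals mark the matches, which describe letters and not bound sites. All 3 genes lie on the minus strand, and each stretch ends at the base before the start site: Nfkbia at chr12:55492648-55492897, Tnfaip3 at chr10:19015411-19015660 and Rel at chr11:23770970-23771219.
Nfkbia: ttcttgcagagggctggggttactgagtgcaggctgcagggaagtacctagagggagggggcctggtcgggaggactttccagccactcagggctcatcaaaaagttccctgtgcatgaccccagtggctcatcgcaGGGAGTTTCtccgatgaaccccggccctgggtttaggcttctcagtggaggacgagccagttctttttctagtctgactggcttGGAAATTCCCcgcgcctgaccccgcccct
Tnfaip3: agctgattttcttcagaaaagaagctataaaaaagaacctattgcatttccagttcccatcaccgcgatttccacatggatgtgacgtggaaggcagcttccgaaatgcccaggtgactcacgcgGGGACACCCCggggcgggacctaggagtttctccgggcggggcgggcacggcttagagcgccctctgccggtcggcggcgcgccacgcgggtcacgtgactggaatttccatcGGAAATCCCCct
Rel: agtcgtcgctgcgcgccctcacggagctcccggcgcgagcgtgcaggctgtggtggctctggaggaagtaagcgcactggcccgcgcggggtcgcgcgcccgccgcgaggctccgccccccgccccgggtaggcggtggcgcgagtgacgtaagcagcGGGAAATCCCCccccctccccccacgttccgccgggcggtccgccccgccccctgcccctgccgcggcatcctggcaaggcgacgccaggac
In Nfkbia, GGGANTTTC occurred at 2 places, 1 of them overlapping the consensus match, which lies closer to the start site. Rel had 2 consensus matches that overlap in 1 run of capitals, and Tnfaip3 had 2 separate ones; a second RefSeq window of Tnfaip3, at another start site, held neither motif.

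All 10 genes were expressed above the filter in both fractions. The most abundant members were Cd14 and Nfkbia. In TRAP, Nfkbia averaged 313 ± 197 TPM and Cd14 251 ± 193 TPM; in input, Cd14 averaged 258 ± 143 TPM and Nfkbia 149 ± 45.2 TPM (SD, n = 10 each). The order of the pair thus differed between the fractions, but by less than the spread between libraries. Myd88 came next with 40.5 ± 23.1 TPM in TRAP and 49.1 ± 41.5 TPM in input. Tlr4, Tlr2, Nfkb1 and Tnfaip3 averaged 12.8 to 24.9 TPM in TRAP and 12.2 to 19.9 TPM in input, with ranges that overlapped. Nfkbiz, Relb and Rel were lowest, at 5.41 to 7.24 TPM in TRAP and 5.70 to 8.57 TPM in input, and did not differ from each other beyond their spread.

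**Figure D1:**
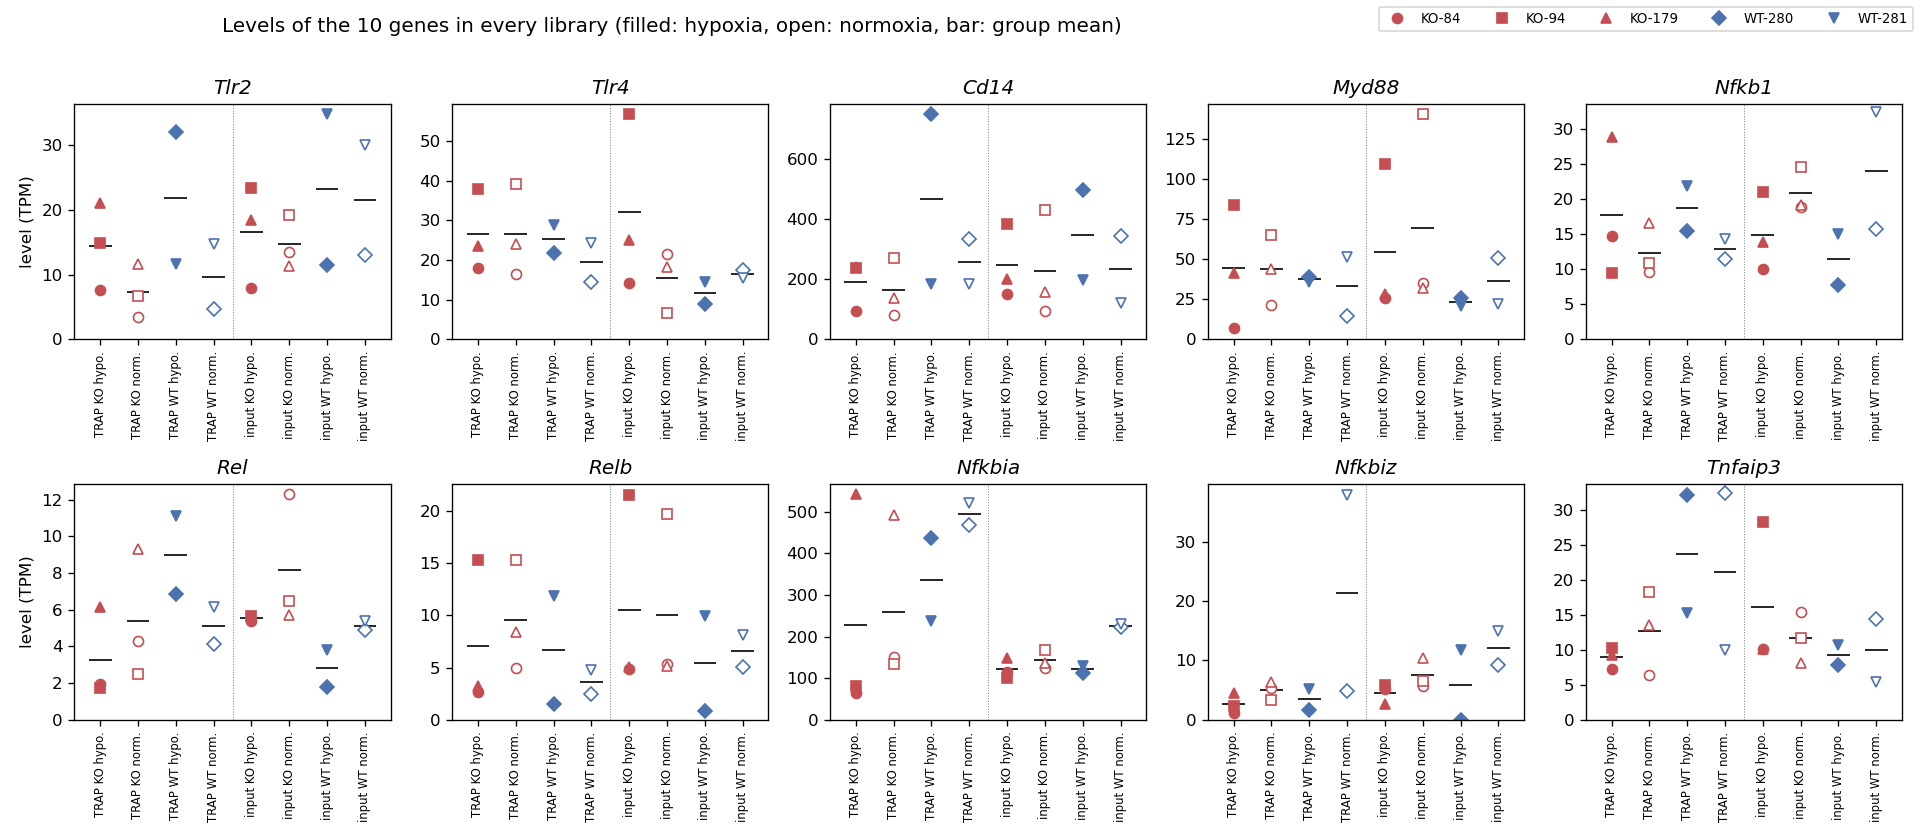
Level in TPM (linear axis from 0) of each gene in the 20 libraries, by fraction, genotype label and oxygen; each symbol is an animal and each bar a group mean. Nfkbia in TRAP sits at 437 to 543 TPM in 5 libraries and at 63.4 to 236 TPM in the other 5, and the highest Myd88 and Relb values are those of KO-94.

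Hypoxia was compared with normoxia over both genotypes, which asks how 18 h at 1% O2 changed the resting levels of the pathway. None of the 10 genes passed the threshold (Benjamini-Hochberg adjusted p under 0.05, limma on log2(TPM + 1)) in TRAP or in input, and neither did any other gene: 0% of 13522 genes in TRAP and 0% of 13901 in input were called. Unadjusted p-values under 0.05 were found for 2.51% of genes in TRAP and 2.31% in input, and among the members for 1 (Nfkbiz) in TRAP and for 0 in input. The directions and sizes below are therefore descriptions of 5 animals. Over all genes, the median log2 difference was 0.01 in TRAP and −0.15 in input, and it was −0.01 in input after quantile normalization, so small negative values in input lie close to that shift. The input shift was −0.02 in knockout-labelled animals and −0.27 in controls, and −0.07 over both genotypes without WT-280. The hypoxia input library of WT-280 had 10364 genes at 1 TPM or more, against 11356 to 12402 in the other input libraries.

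Nfkbiz, the gene of the nuclear co-regulator IkBζ, was lower in hypoxia in each of the 5 animals in both fractions. In TRAP it had 1.06, 2.24, 4.43, 1.72 and 5.14 TPM in hypoxia (KO-84, KO-94, KO-179, WT-280 and WT-281), against 5.42, 3.25, 6.32, 4.92 and 37.9 TPM in normoxia. In input it had 5.15, 5.89, 2.57, 0 and 11.7 TPM in hypoxia, against 5.69, 6.51, 10.5, 9.15 and 15.0 TPM in normoxia. The groups overlapped in both fractions, and the gaps of KO-84 and KO-94 in input were small. The limma log2 difference was −1.36 ± 0.62 in TRAP (SE; 95% interval −2.69 to −0.02; unadjusted p = 0.0470, adjusted p = 1.00) and −1.24 ± 0.64 in input (adjusted p = 0.999). A lower value in all 5 animals was seen for 2.8% of genes in TRAP, 7.02% in input and 0.424% in both at once. The input value rested on the library of WT-280 in hypoxia, in which Nfkbiz is listed at 0: the difference was −0.32 without that library, and −0.48 without that animal.

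Nfkbia, the IkBα gene, was lower in hypoxia in 4 of 5 animals in each fraction, with KO-179 as the exception both times. In TRAP it had 63.4, 80.5, 543, 437 and 236 TPM in hypoxia, against 149.9, 134, 493, 468 and 521 TPM in normoxia, in the same order of animals. In input it had 115, 100.4, 149, 112 and 129 TPM in hypoxia, against 123, 167, 137, 223 and 230 TPM in normoxia. In input, the widest gaps were those of both controls and KO-94, and the ranges of hypoxia and normoxia input overlapped. The log2 difference was −0.61 ± 0.57 in TRAP (adjusted p = 1.00; −0.35 without WT-281) and −0.57 ± 0.27 in input (adjusted p = 0.999). Tnfaip3, the gene of A20, showed no common direction: its log2 difference was −0.04 ± 0.49 in TRAP and 0.16 ± 0.46 in input, and it was higher in hypoxia in 2 of 5 animals in TRAP and in 3 of 5 in input.

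The subunit gene Nfkb1 differed in opposite directions in the fractions. In TRAP it had 14.7, 9.51, 28.9, 15.5 and 21.9 TPM in hypoxia, against 9.63, 10.9, 16.5, 11.4 and 14.3 TPM in normoxia, and was higher in hypoxia in 4 of 5 animals. In input it had 9.98, 21.0, 13.8, 7.80 and 15.0 TPM in hypoxia, against 18.9, 24.5, 19.2, 15.7 and 32.4 TPM in normoxia, and was lower in hypoxia in 5 of 5 animals. The log2 difference was 0.44 ± 0.45 in TRAP and −0.75 ± 0.39 in input. The difference between these differences, tested in a joint fit, was 1.19 ± 0.55 (95% interval 0.03 to 2.34; unadjusted p = 0.0442, adjusted p = 1.00). In that test 0% of 14842 genes were called, and 2.38% had an unadjusted p under 0.05, against 1 of the 10 members; the median over all genes was 0.16.

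Rel, the c-Rel gene, was lower in hypoxia input in 5 of 5 animals (log2 difference −0.58 ± 0.42; adjusted p = 0.999), at 5.37, 5.64, 5.60, 1.81 and 3.79 TPM in hypoxia against 12.3, 6.45, 5.72, 4.90 and 5.36 TPM in normoxia. KO-179 and KO-94 moved by little, and the widest gaps were those of KO-84 and WT-280. In TRAP, Rel was lower in hypoxia in the 3 knockout-labelled animals and higher in both controls. Relb did not move in a common direction (log2 difference −0.14 ± 0.65 in TRAP and −0.36 ± 0.64 in input); in WT-280 input it had 0.856 TPM in hypoxia and 5.02 TPM in normoxia, while KO-94 had 21.6 TPM in hypoxia and 19.7 TPM in normoxia.

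Among the receptors, Tlr2 was higher in hypoxia TRAP in 4 of 5 animals, with 7.67, 14.9, 21.0, 32.0 and 11.6 TPM in hypoxia against 3.43, 6.65, 11.7, 4.64 and 14.7 TPM in normoxia. WT-281 was the exception. The log2 difference was 1.03 ± 0.54 (adjusted p = 1.00), and it was 0.31 without WT-280, whose gap was the widest. In input, Tlr2 did not follow (0.04 ± 0.46; higher in hypoxia in 3 of 5 animals), and the difference between TRAP and input was 0.98 ± 0.71 (adjusted p = 1.00), and 0.17 without WT-280. Tlr4 showed no common direction in either fraction. Its input difference of 0.22 ± 0.47 (adjusted p = 0.999) came from KO-94, with 57.0 TPM in hypoxia and 6.55 TPM in normoxia, and was −0.28 without that animal.

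Cd14, which hands lipopolysaccharide to the TLR4 complex, was higher in hypoxia input in 4 of 5 animals, at 152, 385, 202, 496 and 197 TPM in hypoxia against 95.6, 431, 157, 345 and 121 TPM in normoxia. The log2 difference was 0.43 ± 0.48 in TRAP (adjusted p = 1.00), where it was higher in 3 of 5 animals, and 0.45 ± 0.49 in input (adjusted p = 0.999). Without WT-280 the TRAP value was 0.13. With libraries left out, the input value ranged from 0.12 to 0.56. It was 0.12 without the hypoxia library of WT-280, a setting that keeps the normoxia library of that animal unpaired. Within animals, the input differences were 0.66 in KO-84, −0.16 in KO-94, 0.36 in KO-179, 0.52 in WT-280 and 0.70 in WT-281. Myd88, the shared adaptor, was lower in hypoxia input in 5 of 5 animals (−0.42 ± 0.53; adjusted p = 0.999; −0.21 without WT-280), at 25.7, 109.5, 28.5, 26.0 and 20.8 TPM in hypoxia against 35.1, 140.4, 32.1, 50.5 and 22.3 TPM in normoxia. In TRAP its difference was 0.00 ± 0.62. Together with Nfkbiz, Nfkb1 and Rel, Myd88 made 4 of 10 members that were below normoxia in all 5 animals in input, against 7.02% of all genes. In TRAP it was 1 of 10, against 2.8%. The 10 members were chosen with earlier results of these data known, so these counts are descriptions only. The median log2 difference over all genes was also below 0 in hypoxia input, at −0.15 over both genotypes. It was −0.02 in knockout-labelled animals and −0.27 in controls. Some of the input gaps were smaller than the value over both genotypes: Rel in KO-179 (−0.03), Myd88 in WT-281 (−0.10) and Nfkbiz in KO-84 and KO-94 (−0.12 each). Of these, only Myd88 in WT-281 was smaller than the median of its own label.

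**Figure D2:**
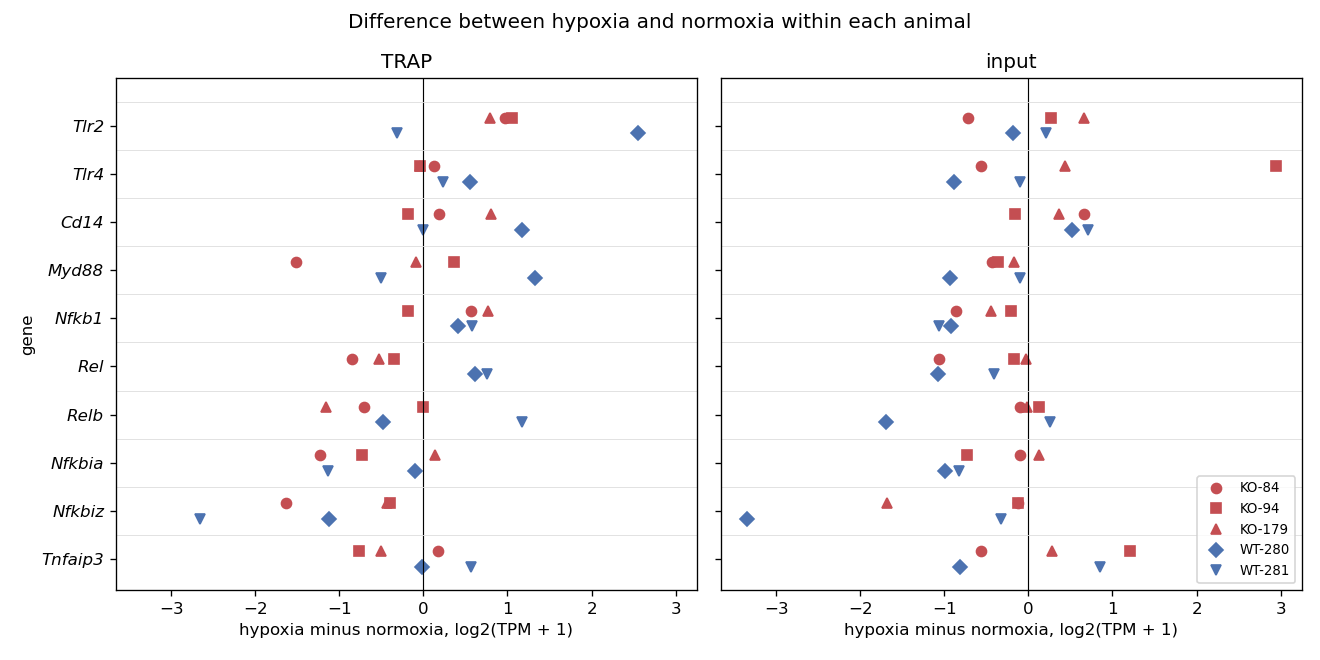
Difference in log2(TPM + 1) between hypoxia and normoxia within each animal, for TRAP and input; points left of 0 are lower in hypoxia. Nfkbiz lies left of 0 in all 5 animals in both fractions, and Nfkb1 lies left of 0 in input in all 5 and right of 0 in TRAP in 4.

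With the animal as a block, a fit in which each animal is compared with itself, the estimates were the same and their errors smaller, but none of the 10 genes passed. Unadjusted p-values under 0.05 were then found for 4 members in input (Cd14, Nfkbia, Nfkbiz and Nfkb1), against 9.47% of all genes, and for 2 in TRAP (Nfkbia and Nfkbiz), against 6.99%. These counts too are of members chosen with earlier results of these data known. The smallest adjusted p of a member was 0.515 in input and 0.664 in TRAP. For the change of the TRAP to input difference with hypoxia, 1 member (Nfkb1) and 6.11% of genes were under 0.05 unadjusted, with an adjusted p of 0.791. The hypoxia response did not differ between the genotype labels for any gene past the threshold: 0% of genes were called in TRAP and 0% in input, and the smallest unadjusted p of a member was 0.262 (Rel) in TRAP and 0.154 (Tlr4) in input.

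Knockout-labelled animals were then compared with controls, using the mean of each animal's hypoxia and normoxia libraries. None of the 10 genes passed in either fraction. In TRAP, 0.0074% of genes were called and 4.28% had an unadjusted p under 0.05, and in input 0% and 2.51%; no member had an unadjusted p under 0.05 in either. With 3 animals against 2, the spread between animals of 1 label was wide for most members. Over the members, 3 were higher and 7 lower in knockout-labelled TRAP, with a median log2 difference of −0.56 against 0.06 for all genes, and 6 were higher and 4 lower in input, with a median of 0.29 against 0.24.

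Nfkbia had the smallest p among the members in TRAP. It averaged 244 ± 215 TPM in the 6 knockout-labelled TRAP libraries and 416 ± 124 TPM in the 4 control ones (SD over libraries), a log2 difference between animal means of −1.19 ± 0.64 (95% interval −2.56 to 0.18; adjusted p = 1.00). The low libraries were those of KO-84 and KO-94, at 63.4 to 149.9 TPM, whereas KO-179, at 493 and 543 TPM, was as high as the controls. The summed fibroblast markers moved with it, at 18.4 to 67.5 TPM in the TRAP libraries of KO-84 and KO-94, 128 and 175 TPM in those of KO-179 and 135 to 309 TPM in those of the controls; their part was not tested. The difference was −0.78 without KO-84 and −1.97 without KO-179. In input the difference was −0.34 ± 0.44 (adjusted p = 0.982). In normoxia input both controls, at 223 and 230 TPM, were above the 3 knockout-labelled libraries, at 123 to 167 TPM. The limma log2 difference there was −0.68 ± 0.38 (unadjusted p = 0.102) and did not pass the threshold. The share of all genes with such a separation was not counted. In hypoxia input the groups overlapped.

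Cd14 and Tnfaip3 were also lower in knockout-labelled TRAP, by −0.92 ± 0.58 and −0.91 ± 0.67 on the log2 scale (adjusted p = 1.00 each). The part of the fibroblast markers, given for Nfkbia above, was not tested here either. Cd14 depended on the control WT-280, with 752 TPM in hypoxia TRAP and 333 TPM in normoxia TRAP: without it the difference was −0.20. Tnfaip3 had 32.1 and 32.3 TPM in WT-280 TRAP and 6.34 to 18.2 TPM in the other TRAP libraries, and its difference was −0.26 without WT-280. In both genes the range of the knockout-labelled libraries overlapped that of WT-281.

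Myd88 and Relb were higher in knockout-labelled input, by 0.77 ± 0.64 and 0.69 ± 0.76 (adjusted p = 0.982 each), values that changed most when KO-94 or a control was left out. KO-94 had 109.5 and 140.4 TPM of Myd88 in input, where the other 8 input libraries had 20.8 to 50.5 TPM, and 21.6 and 19.7 TPM of Relb, where the others had 0.856 to 9.94 TPM. KO-94 also had the highest levels of both genes in TRAP, 84.1 and 65.3 TPM of Myd88 and 15.3 and 15.3 TPM of Relb. Without KO-94 the input difference was 0.11 for Myd88 and 0.08 for Relb, and Myd88 differed by 0.41 without WT-281. Relb in TRAP differed by 0.63 ± 0.79 (adjusted p = 1.00), and the sign of Relb turned when WT-280 was left out (−0.14 in TRAP, −0.11 in input); WT-280 had 0.856 TPM in hypoxia input. Relb in TRAP was 0.10 without KO-94. Tlr4 differed by 0.48 ± 0.54 in input (adjusted p = 0.982). The summed fibroblast markers were lower in every knockout-labelled than in every control input library, as given above, and KO-94 had the lowest sum (147 and 211 TPM); their part in these differences was not tested.

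The ratio of TRAP to input compares the share of an mRNA in the TRAP library with its share in the input library. It is one of relative abundance and not an amount on ribosomes. The fibroblast markers and the mitochondrially encoded mRNA also differed between the fractions, as given above, and their part in the ratio was not tested. Over all groups, 0.687% of 14842 genes were called and 12.6% had an unadjusted p under 0.05; with the animal as a block these shares were 7.44% and 23.9%. Of the 10 members, 0 were called and 1, Nfkbia, had an unadjusted p under 0.05, with or without the block. Nfkbia averaged higher in TRAP, with 313 ± 197 TPM against 149 ± 45.2 TPM in input (SD, n = 10 libraries each). The limma log2 difference was 0.84 ± 0.34 (95% interval 0.12 to 1.56, adjusted p = 0.315, and 0.0559 with the block). Without KO-179 the difference was 0.48. In both fits, the hypoxia and normoxia libraries of an animal counted as separate values of its TRAP to input difference. The error, interval and p-values may therefore overstate the precision for a gene on which the animals differed, as given below. The median over all genes was −0.19, and 0.02 after quantile normalization. Tlr4 was next with 0.48 ± 0.31 (adjusted p = 0.540), then Tnfaip3 with 0.39 ± 0.33 (adjusted p = 0.665; 0.16 without WT-280), and Tlr2 was the lowest with −0.60 ± 0.36 (adjusted p = 0.504; −0.28 without WT-281). The other 6 members lay between −0.23 and 0.01.

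The TRAP to input difference of Nfkbia split the animals. Averaged over oxygen, it was −0.29 in KO-84, −0.31 in KO-94, 1.85 in KO-179, 1.51 in WT-280 and 1.02 in WT-281 on the log2 scale. The same 2 animals were lowest for 7 of the 10 members (Cd14, Myd88, Nfkbia, Nfkbiz, Rel, Relb and Tnfaip3), against 23.4% of all genes, a count made after the values were seen. Rel, for example, had −1.23 in KO-84 and −1.18 in KO-94, and 0.36 in KO-179, 0.64 in WT-280 and 0.75 in WT-281. The median over all genes moved the same way, at −0.37 in KO-84, −0.37 in KO-94, −0.07 in KO-179, −0.07 in WT-280 and −0.12 in WT-281. So did the share of mitochondrially encoded mRNA in TRAP, which was 0.0298% to 0.0671% in the 4 TRAP libraries of KO-84 and KO-94 and 0.295% to 0.861% in the other 6. The 11 fibroblast markers split the TRAP libraries the same way, with sums of 18.4 to 67.5 TPM in KO-84 and KO-94, 128 and 175 TPM in KO-179 and 135 to 309 TPM in WT-280 and WT-281. The part of the mitochondrial share and of the fibroblast markers in the result was not tested. Tlr4 and Tlr2 did not follow: Tlr4 was highest in KO-94 (0.92), and Tlr2 was lowest in WT-281 (−1.25).

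**Figure D3:**
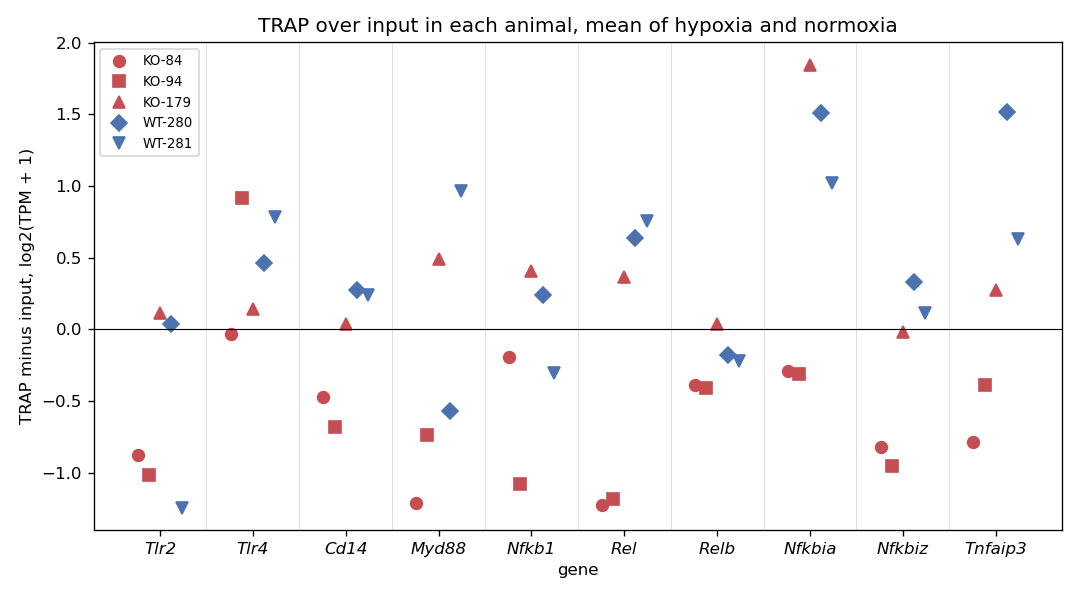
Difference in log2(TPM + 1) between TRAP and input for each gene and animal, averaged over hypoxia and normoxia; points above 0 are higher in TRAP. For Nfkbia, KO-84 and KO-94 lie just below 0 and the other 3 animals between 1.02 and 1.85.

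**Figure D4:**
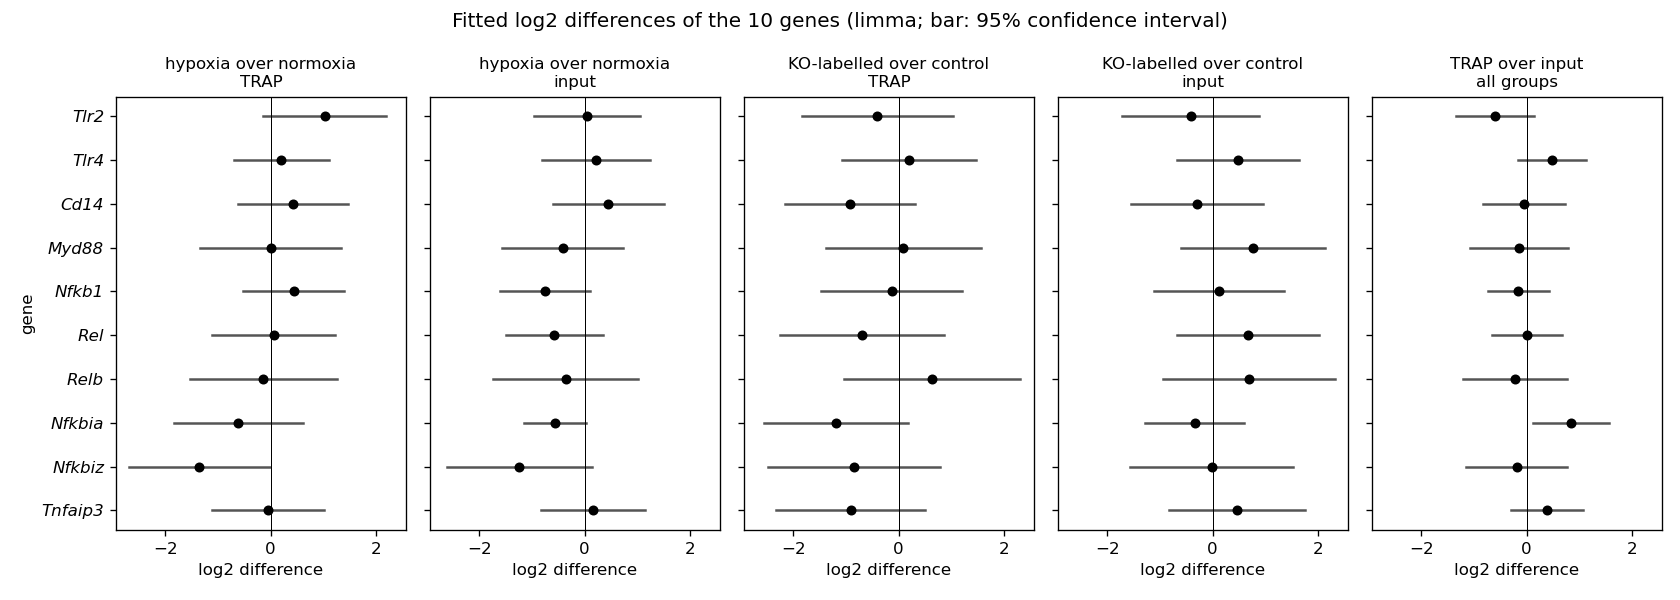
Fitted log2 differences (points) with 95% confidence intervals (bars) of the 10 genes in 5 comparisons, on a common axis. The intervals leave out 0 for Nfkbiz in hypoxia TRAP and Nfkbia in TRAP over input, before any adjustment for the number of genes tested. For hypoxia and for TRAP over input, the libraries of an animal counted as independent.

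The members differed in how much of their variation lay between animals. In input, animals accounted for 92.3% of the variance of log2 levels in Myd88, 88.8% in Cd14, 85.1% in Tlr2 and 84.5% in Relb, against a median of 68.5% over all genes, but for 24.7% in Nfkbia and 12.2% in Tlr4. Oxygen accounted for 43.1% in Nfkbia and 42.9% in Nfkb1 in input, against a median of 4.39%. In TRAP, the share between animals was 89.8% in Tlr4, 88.5% in Tnfaip3, 86.6% in Nfkbia and 86.4% in Cd14, with a median of 65.8% over all genes. Nfkbia thus varied more with oxygen than between animals in input, and more between animals than with oxygen in TRAP.

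Across the 20 libraries, with the mean of each fraction subtracted, the members followed each other only in part. The highest correlations between members were Myd88 with Relb (r = 0.64), Cd14 with Tnfaip3 (0.62), Nfkbia with Rel (0.59) and Nfkb1 with Rel (0.59), and the lowest was Cd14 with Nfkbiz (−0.31). Among 7800 other genes, the pattern most like that of Myd88 was found in Nudc (r = 0.94), of Relb in Tbc1d20 (0.93), of Cd14 in Plaur (0.92), of Rel in Ubn2 (0.88), of Nfkbia in Fbln2, Cyr61 and Ctgf (0.87, 0.86 and 0.85), of Tnfaip3 in Nedd1 (0.83), of Nfkbiz in Thra (0.82), of Nfkb1 in Sp3 (0.82), of Tlr2 in Rchy1 (0.78) and of Tlr4 in Max (0.64). The libraries share animals and lysates, so these values describe the 20 libraries and carry no p.

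The rest of the pathway was followed through 6 lists, of which no gene passed in any comparison. Between genotypes, 46.4% of all genes were lower in knockout-labelled TRAP and 33.3% in input, and the median of all genes in input was 0.24, or 0.01 after quantile normalization. The other Toll-like receptors were higher in the knockout-labelled animals in these counts: all 7 tested in TRAP (median log2 difference 0.42, against 0.06 for all genes) and 6 of 7 in input (0.90, against 0.24). The 6 other subunit and IkB genes, Rela among them, were higher in 4 of 6 cases in TRAP (median 0.31) and 6 of 6 in input (0.53), and the 18 adaptor, kinase and ubiquitin ligase genes in 11 of 18 (0.09) and 15 of 18 (0.47). The receptor partners were higher in 7 of 8 cases in each fraction (0.30 in TRAP and 0.45 in input), and the other inhibitors in 10 of 16 in TRAP (0.06) and 13 of 16 in input (0.38).

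Of the effector genes that NF-kB induces, 11 of 16 tested were lower in knockout-labelled TRAP (median −0.49), against 46.4% of all genes, and 12 of 17 in input (−0.30), against 33.3%. Cxcl2, a neutrophil-attracting chemokine, had a log2 difference of −2.32 ± 0.86 in TRAP (unadjusted p = 0.0166, adjusted p = 1.00) and −1.98 ± 0.73 in input (0.0167 and 0.982). It had 10.7 to 177 TPM in the knockout-labelled and 60.8 to 884 TPM in the control TRAP libraries, ranges that overlapped. WT-281 was highest (729 and 884 TPM) and KO-94 lowest (10.7 and 21.4 TPM), while WT-280 (60.8 and 264 TPM) overlapped KO-84 (137 and 177 TPM). In input, WT-281 had 409 and 673 TPM, KO-94 had 15.5 and 37.8 TPM, and the others had 76.1 to 291 TPM. How far the difference rested on single animals was not tested. Tnf, the gene of tumour necrosis factor, differed by −0.46 ± 0.62 in TRAP (adjusted p = 1.00) and −0.81 ± 0.50 in input (0.982).

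For hypoxia, the list medians lay between −0.47 and −0.16 in input and between −0.18 and 0.21 in TRAP. In input, 14 of 18 adaptor, kinase and ligase genes, 11 of 16 other inhibitors and 11 of 17 effector genes were lower than in normoxia, where 64.9% of all genes were lower as well. In TRAP, 12 of 16 effector genes were higher (median 0.21), where 48.8% of all genes were lower and the median of all genes was 0.01. Tnf and Cxcl2, however, differed by −0.87 ± 0.50 and −0.79 ± 0.85 (adjusted p = 1.00 each). In input they differed by −0.77 ± 0.36 and −0.96 ± 0.67 (adjusted p = 0.999 each). Tnf was lower in hypoxia than in normoxia in 4 of 5 animals in each fraction, KO-179 being the exception both times, as it was for Nfkbia.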

How the data were processed

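The samples were cultured fetal-liver macrophages of 5 mice, grouped by genotype label, oxygen and fraction. The submitters' processing notes name HISAT, DESeq2 and GRCm38, without versions or roles. The values were deposited by the authors as TPM, made by them before deposit and scaled to a common sum in every library; the sources used here do not say with which tool they were computed. An input and a TRAP table each hold 1 value per gene and library, and the unit was read from those sums. TPM hold no read numbers, so precision rests on replicates alone. In the deposited tables, 20 columns of ratios per sample were not used. Of 52636 gene IDs, 52403 were found in the gene table.

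A gene was analysed, as log2(TPM + 1), if 2 or more libraries of a fit reached 1 TPM, so fold changes of low genes are understated. limma 3.58.1 in R 4.3.3, moderating variances along their trend with the mean, estimated each group's mean: 10 libraries in 4 groups for each fraction, and 20 libraries in 8 groups for TRAP against input. Genotypes were compared on animal means, 5 per fraction. The joint fit treats the libraries of an animal as independent. P-values were two-sided and adjusted (Benjamini-Hochberg) over all genes of a comparison, with 0.05 as the threshold. The fits were tested on simulated data with independent noise in each library and no animal effect. That test therefore cannot show how the fits behave with paired libraries that share an animal. Python 3.11.15, numpy 2.4.6, pandas 2.3.3 and matplotlib 3.10.9 were used for tables and plots.

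The members and the gene lists were chosen with earlier results of these data known. All 10 members were described in each comparison, and genes of the lists were named where they passed, with Tnf and Cxcl2 in addition. Alternatives were pseudocounts of 0.1 and 5, no filter, quantile normalization, limma without trend, the animal as replicate block and leaving out each animal; leaving out the input libraries of KO-84 in normoxia and WT-280 in hypoxia was added after the data were seen. Libraries with the same animal number come from the same mouse and are paired; deviations from the group means in hypoxia and normoxia correlated at r = 0.23 to 0.58 in TRAP and 0.28 to 0.76 in input. No batch is given in the labels.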

Additional observations from a re-analysis of the deposited data

Results flagged for a closer look

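Rel was picked out from the members by its values, because its hypoxia response differed in direction between the labels. The share of all genes with such a split was not counted, so the split cannot be taken as particular to Rel. Rel was lower in hypoxia TRAP in all 3 knockout-labelled animals and higher in both controls. It had 1.93 (KO-84), 1.74 (KO-94) and 6.13 TPM (KO-179) in hypoxia, against 4.28, 2.51 and 9.29 TPM in normoxia, and 6.83 and 11.1 TPM in hypoxia in WT-280 and WT-281, against 4.11 and 6.14 TPM in normoxia. The difference between the hypoxia responses was −1.27 ± 1.08 on the log2 scale (95% interval −3.60 to 1.06; limma interaction term, unadjusted p = 0.262, adjusted p = 1.00) and did not pass the threshold.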

How the results depend on the processing

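None of the 10 genes passed in any of 1940 recomputed values over the 16 comparisons, and the smallest adjusted p was 0.0559 (Nfkbia, TRAP over input, replicate block). Alternatives of direction were followed for 33 values of the members. In the 190 recomputations of these that left out no library, 188 kept the direction; the exceptions were Myd88 in hypoxia TRAP, near 0, with a pseudocount of 0.1 (−0.0074) and with quantile normalization (−0.015). With libraries left out, 181 of 197 kept it. The exceptions, as ranges over the libraries left out, were in hypoxia TRAP Tnfaip3 (−0.19 to 0.10), Relb (−0.55 to 0.27) and Myd88 (−0.46 to 0.46), in hypoxia input Tlr2 (−0.10 to 0.43), Tlr4 (−0.28 to 0.60), Tnfaip3 (−0.25 to 0.58) and Relb (−0.85 to 0.28), and between genotypes Relb in TRAP (−0.14 to 1.40) and in input (−0.11 to 1.48). The cause was not tested.

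Counts of genes past the threshold, over all genes, changed as follows, and the cause was not tested. The 102 genes of TRAP over input became 61 with quantile normalization, 1104 with the replicate block, and 30 to 118 with animals or libraries left out. The replicate block changed no other call. The 1 gene of the genotype comparison of animal means in TRAP became 0 with a pseudocount of 0.1, without the filter, with quantile normalization and without the trend, and 0 to 13 with animals left out; in input that comparison gave 0 to 9 with animals left out. Without the filter, 2 genes passed for hypoxia in controls in input and 13 in TRAP, 14 for the change of the TRAP to input difference, and between genotypes 1 in normoxia and 1 in hypoxia in input and 2 and 10 in TRAP. A pseudocount of 5 gave 1 gene between genotypes in normoxia TRAP and 1 in hypoxia TRAP, and a pseudocount of 0.1 gave 1 for the interaction in TRAP. With animals or libraries left out, hypoxia input gave 0 to 1 over both genotypes and 0 to 1 in knockout-labelled animals, and the genotype comparisons gave 0 to 2 in normoxia input, 0 to 1 in hypoxia input, 0 to 1 in normoxia TRAP and 0 to 2 in hypoxia TRAP.

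With 3 and 2 animals per label and no read numbers, small differences were not detectable here. Leaving out 1 control leaves a group with 1 library, whose spread is then taken from the remaining groups.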
